A study of Mus musculus with 2 samples.

Results

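The endoplasmic reticulum (ER) chaperone genes Sdf2l1, Hspa5, Hsp90b1, Pdia3, Pdia4, Pdia6, Calr, Canx, Creld2 and Manf were compared in brain RNA of mice without and with interleukin-18, a proinflammatory cytokine. Members were the non-control probes whose accession matched these 10 symbols, which gave 11 probes on 20 spots, all well above background on both arrays, among 15737 measured genes in all. The groups were Il18-/- and Il18+/+ males on a C57Bl/6 N background, aged 12 weeks, with RNA of 7 mice mixed per genotype and each mixture hybridised to 1 one-colour array. The sample labels call the tissue hippocampus, whereas prefrontal cortex stands as the RNA source in the extraction text. No test was made, since each genotype has 1 pool and thus no replicates. The number of arrays limits the precision, and the values describe these 2 pools. In pooled tissue, fewer cells of a type and less RNA per cell cannot be told apart.

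Proteins that enter the secretory pathway fold in the ER, where chaperones hold unfolded chains, lectins retain glycoproteins until they are folded, and protein disulfide isomerases form and rearrange disulfide bonds. When unfolded proteins accumulate, the sensors ATF6, IRE1 and PERK start the unfolded protein response. ATF6 and XBP1, the factor that IRE1 activates through splicing, then raise transcription of chaperone genes, in part through the ER stress response element (ERSE) in their promoters. Neurons, myelinating glia and secretory epithelia such as the choroid plexus all make large amounts of membrane and secreted protein.

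The promoters are shown because the ERSE is the sequence that many of these genes share. Promoter sequences from RefSeq (GRCm38.p6) matched 9 of the 10 genes, all except Manf, and the 250 bases before the start of the gene were searched on both strands for the ERSE, CCAAT and CCACG with 9 bases between them. An exact match stood in 6 of the 9 promoters, those of Hspa5, Hsp90b1, Canx, Calr, Pdia6 and Creld2, and in 0.113% of all 32851 promoter entries. Hsp90b1 held 2 matches. The matched bases are given in the CCAAT to CCACG reading, whichever strand they lie on, with CCAAT and CCACG in capitals.
Hspa5: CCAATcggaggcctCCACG
Hsp90b1, farther from the start: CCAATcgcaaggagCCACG
Hsp90b1, nearer to the start: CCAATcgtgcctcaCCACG
Canx: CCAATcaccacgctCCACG
Calr: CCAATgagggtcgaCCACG
Pdia6: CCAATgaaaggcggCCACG
Creld2: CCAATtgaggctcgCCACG

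The Hspa5 match lies 65 to 47 bases before the start, on the strand of the gene, and that of Creld2 lies 126 to 108 bases before it, on the opposite strand. The promoters of Pdia3, Pdia4 and Sdf2l1 held no exact match. Sdf2l1 held 3 CCAAT and 3 CCACG runs, none at the spacing searched, and these short runs stand in 33.8% and 28.3% of all promoter entries. They are also part of the longer motif. A related element, ERSE-II, searched as ATTGG and CCACG with 1 base between them, was found in none of the 9 promoters and in 0.0304% of all entries. A match is a description of the letters and not evidence of binding. The whole 250 bases are given for Hspa5 at chr2:34771840-34772089 on the plus strand and for Sdf2l1 at chr16:17132384-17132633 on the minus strand, each 5' to 3' along its gene. Hspa5 encodes the central chaperone of the group, and Sdf2l1 had the largest difference between the pools. Capitals mark the exact match in Hspa5.
Hspa5: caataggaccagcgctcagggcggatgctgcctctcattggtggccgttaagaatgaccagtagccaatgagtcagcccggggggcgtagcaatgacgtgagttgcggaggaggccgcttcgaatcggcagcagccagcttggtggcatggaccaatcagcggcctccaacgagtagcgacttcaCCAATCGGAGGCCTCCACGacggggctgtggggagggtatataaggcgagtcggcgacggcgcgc
Sdf2l1: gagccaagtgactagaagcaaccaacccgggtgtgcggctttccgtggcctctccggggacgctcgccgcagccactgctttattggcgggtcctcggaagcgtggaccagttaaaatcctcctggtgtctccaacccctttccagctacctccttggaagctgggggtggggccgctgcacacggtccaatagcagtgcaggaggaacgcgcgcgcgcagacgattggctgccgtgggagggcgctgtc

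Each level is a log2 intensity after subtraction of the 75th percentile over the non-control spots of its array, and differences are Il18-/- minus Il18+/+. Il18 itself had a level of -0.12 in Il18-/- against 1.37 in Il18+/+ (difference -1.49), by 1 probe whose place relative to the deleted part is not known here. The share of spots well above background was 66.2% in Il18-/- and 67.8% in Il18+/+. The middle of all measured genes lay at a difference of 0.01, and 90% of them lay between -0.45 and 0.33. Repeated spots of 1 probe had a median SD of 0.07 for the difference, over 304 probes with repeats, and different probes of 1 gene a median SD of 0.12, over 4123 genes. The scanner software attaches its own error to each spot, which came to 0.20 for the difference of a member read by 1 probe. It was 0.205 for Pdia4, the dimmest member, 0.204 for Hspa5, the brightest, and 0.204 for Creld2 with its 10 spots. For these members it thus acts as a nearly fixed limit and not as a spread measured for each gene. These errors cover the arrays and leave out the spread between animals. Of the hippocampal markers, 7 of 8 dentate gyrus genes and all 8 pyramidal cell genes were measured, and so were all 9 neocortical genes.

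Most of the group read lower in Il18-/-, by amounts that differed from member to member. The cofactor gene Sdf2l1 was 1.48-fold lower, the disulfide isomerase gene Pdia3 1.29-fold lower, and Hspa5, which encodes the chaperone BiP, 1.26-fold lower. Canx and Hsp90b1 differed by 0.08 and 0.02. The median difference over the 10 members was -0.28, against 0.01 over all measured genes. Of the 10, 8 were lower in Il18-/-, against 47.4% of all measured genes and 38.8% of the 8663 genes whose mean level lay within the range of the members. At least 1.2-fold lower were 5 of the 10, against 12.4% of all measured genes and 4.94% of those in the level range, and 0 of the 10 were at least 1.2-fold higher, against 7.33% and 4.17%. At 1.5-fold or more, 0 of the 10 were lower, against 2.57% of all measured genes and 0.727% of those in the level range, and 0 were higher, against 1.68% and 0.496%. By more than the software error 6 of the 10 were lower, against 17.8% and 10% of these genes, and 4 lay within it. By more than 2 software errors 1 was lower, against 5.8% and 2.65%. Members were chosen with earlier results of these arrays known, so these counts describe the group and are no independent evidence of its direction.

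**Figure D1:**
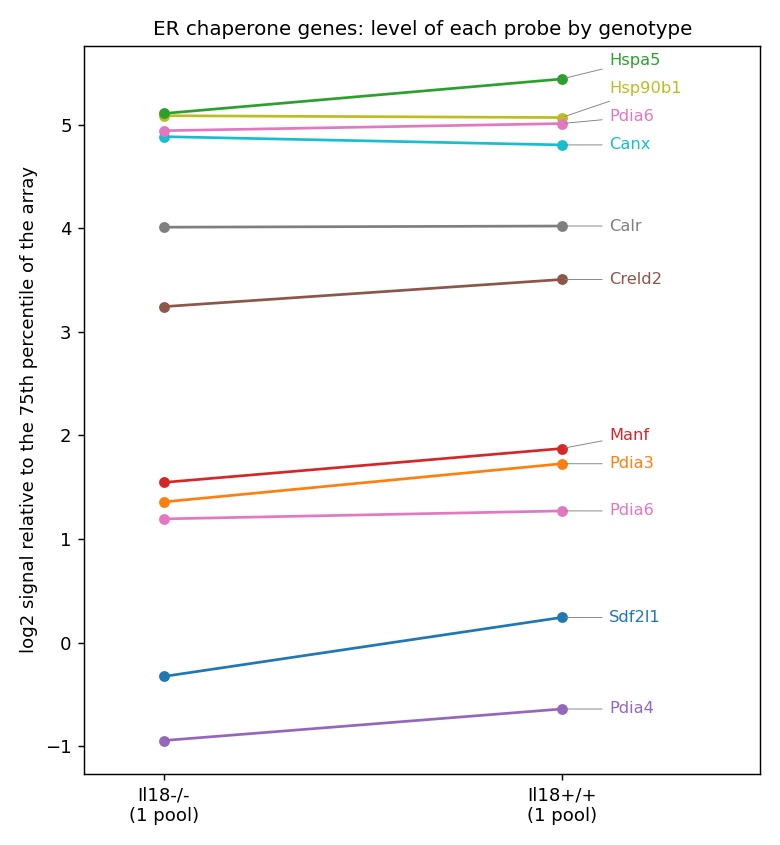
Level of each of the 11 probes in the Il18-/- pool (left) and the Il18+/+ pool (right), as log2 signal relative to the 75th percentile of the array. Lines join the same probe, heights of different probes are not comparable, and lines that climb to the right are lower in Il18-/-, most steeply Sdf2l1 at -0.33 in Il18-/- and 0.24 in Il18+/+.

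Hspa5 encodes BiP, the Hsp70 of the ER, which binds exposed hydrophobic stretches and holds the stress sensors inactive. It read 5.11 in Il18-/- and 5.44 in Il18+/+, intensities of 24462 and 30151, a difference of -0.33 with a software error of 0.20. Among the 500 measured genes nearest to it in level, which had a median difference of 0.09, 0.6% were as low or lower. Hsp90b1 encodes GRP94, the Hsp90 of the ER, which folds a narrower set of client proteins, among them integrins and Toll-like receptors. Its probe read 5.09 in Il18-/- and 5.07 in Il18+/+, a difference of 0.02, well inside the software error. The direction for Hsp90b1 is not settled, since it was -0.07 after quantile or loess normalization and -0.06 without background correction.

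Calreticulin and calnexin are lectins that hold glycoproteins bearing a trimmed sugar chain, calreticulin free in the ER lumen and calnexin in its membrane. Calr read 4.01 in Il18-/- and 4.02 in Il18+/+, a difference of -0.01. Canx read 4.88 in Il18-/- and 4.80 in Il18+/+, a difference of 0.08. Neither difference exceeded the software error of 0.20, and both turned sign with the scaling, Calr to 0.05 with median scaling and Canx to -0.01 with quantile or loess normalization.

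The disulfide isomerases split by gene. Pdia3 encodes ERp57, which works on the glycoproteins that calnexin and calreticulin hold, and its probe read 1.36 in Il18-/- and 1.73 in Il18+/+, a difference of -0.37. Pdia4, which encodes ERp72, read -0.94 in Il18-/- and -0.64 in Il18+/+, a difference of -0.30, and 10.4% of the 500 genes nearest in level were as low or lower. Genes near its dim level spread widely, and the nearest genes of Pdia4 had a 5th percentile of -0.42. Pdia6 encodes P5, a partner of BiP, and was the one member read by several probes. Its probes read 1.19 and 4.94 in Il18-/- and 1.27 and 5.01 in Il18+/+, differences of -0.08 and -0.07, a mean of -0.07. The probes stood far apart in level and close together in difference, so the height of a probe does not give the abundance of a gene here.

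Sdf2l1, Creld2 and Manf are soluble ER proteins whose genes are induced by ER stress. SDF2L1 joins BiP and its ERdj3 cochaperone, CRELD2 has disulfide isomerase activity, and MANF, which interacts with BiP, is also secreted and protects neurons. Sdf2l1 read -0.33 in Il18-/- and 0.24 in Il18+/+, intensities of 566 and 823, a difference of -0.57. It was the 1 member that was lower by more than 2 software errors, and 1.2% of the 500 genes nearest in level were as low or lower. Manf read 1.55 in Il18-/- and 1.87 in Il18+/+, a difference of -0.33, and 1.8% of its nearest genes were as low or lower.

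Creld2 has the most spots behind it. Its probe was printed 10 times, and the repeats read from 3.15 to 3.32 in Il18-/-, median 3.24, and from 3.47 to 3.57 in Il18+/+, median 3.49. All 10 positions were lower in Il18-/-, by 0.26 ± 0.05 on the log2 scale (SD, n = 10 spots of 1 pool each). This repeats the reading of the same RNA and not the biology. How many other repeated probes had all spots on 1 side was not counted. At 1.199-fold lower, Creld2 lay just short of the 1.2-fold limit, and Pdia4, at 1.23-fold, was the nearest member inside it. Of the 500 genes nearest to Creld2 in level, 0.8% were as low or lower.

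**Figure D2:**
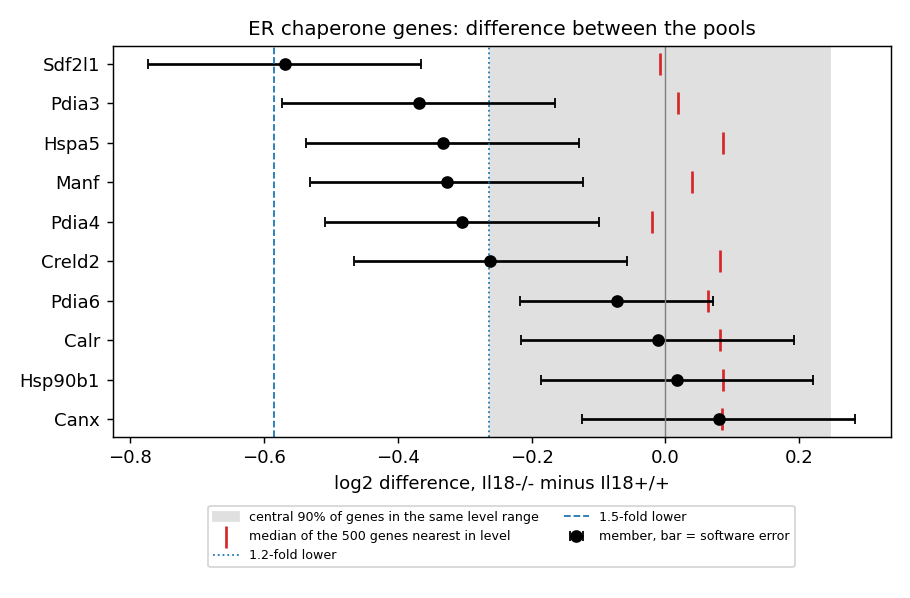
Log2 difference, Il18-/- minus Il18+/+, of each member (points), with the error the scanner software gives (bars), the median of the 500 genes nearest in level (red ticks) and the central 90% of genes in the level range of the members (grey, -0.26 to 0.25). Blue lines mark 1.2-fold and 1.5-fold lower. Sdf2l1, Pdia3, Hspa5, Manf and Pdia4 lie left of the grey band, Creld2 stands at its edge, and all 10 points lie left of their red tick.

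Brighter genes read slightly higher in Il18-/-, which sets the scale for the bright members. The 500 genes nearest to Calr, Hspa5, Hsp90b1, Canx and Creld2 had median differences of 0.08 to 0.09, while those nearest to Sdf2l1 and Pdia4 had medians of -0.01 and -0.02. All 10 members lay below the median of their nearest genes, and 5 of them, Sdf2l1, Hspa5, Pdia3, Creld2 and Manf, lay below the 5th percentile. All 10 members were lower in Il18-/- after quantile normalization, against 51.4% of all measured genes, and after loess normalization, against 49.5%. Spots around the members on the glass were also read, and 10 of the 20 member spots are those of the Creld2 probe. An effect of the place on the glass was not tested. The medians of the 18 nearest spots, taken over those well above background, lay between -0.17 and 0.10 around the 20 member spots, and no member spot had more than 1 neighbour that was at least 2-fold lower or 1 that was at least 2-fold higher.

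Close relatives that are not members had a median of 0.09, which spike-in scaling turned to -0.20. Sdf2, the constitutive paralog of Sdf2l1, differed by 0.02, and Creld1, the membrane-bound relative of Creld2, by 0.09. Cdnf, the relative of Manf, differed by 0.23 at the dim levels of -4.06 in Il18-/- and -4.29 in Il18+/+. A stricter filter on dim probes left Cdnf out, and the median of the other 2 was 0.06. The difference between relatives was not tested. In the cytosol and mitochondria, 11 of 25 measured chaperone genes were lower and 14 higher, with a median of 0.01. Of these 25, 16 were lower after quantile normalization, with a median of -0.03, and 16 after loess normalization, with a median of -0.08. The cytosolic counterpart of BiP, Hspa8, differed by 0.00, and the cytosolic Hsp90 genes Hsp90aa1 and Hsp90ab1 by -0.03 and -0.05. The 1.2-fold limit was passed downwards by 2 of the 25, the heat-inducible genes Hspb1 at -0.52 and Hspa1a at -0.43. The shares were 12.4% of all measured genes and 4.94% of those in the level range of the members. Dnajb1 at -0.25, Hspa1l at -0.25 and Bag3 at -0.22 were the next lowest, and Cct2 at 0.23 was the highest. The lower genes of this list thus differed by amounts like those of several members. Hspa1a has a near-identical copy that a probe may not separate.

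The other folding genes of the ER had a smaller median difference. Over 4 lists of further folding genes, 25 of 41 measured genes were lower in Il18-/- and 16 higher, with a median of -0.06. The 1.2-fold limit was passed by 4 of the 41 downwards and by 1 upwards. The shares were 12.4% and 7.33% of all measured genes, and 4.94% and 4.17% of those in the level range of the members. Downwards, the 41 thus had a smaller share than all measured genes and a larger one than the genes in that range. Not all of the 41 lie in that range. Among the cochaperones and exchange factors of BiP, 7 of 8 were lower, with a median of -0.12. Dnajc10, a disulfide reductase that pulls substrates towards degradation, differed by -0.29, and Dnajb9, which represses IRE1, by -0.27. Sil1, a nucleotide exchange factor of BiP, differed by 0.06.

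Of the other disulfide and redox genes 11 of 16 were lower, with a median of -0.06 that median scaling brought to 0.00. Pdia5, a further isomerase, differed by -0.32, and P4hb, the founding member of that family, by -0.08, while Erp44, which retains client proteins in the early secretory pathway, differed by 0.18. The prolyl isomerases had a median of 0.03 over 7 measured genes, with Fkbp14 at -0.27 and Ppic at 0.40. Genes of glycan-dependent folding had a median of -0.01, or 0.05 with median scaling, with 5 of 10 lower and none at 1.2-fold. Mlec, an ER lectin, stood at -0.15, and Uggt1, the sensor of misfolded glycoproteins, at -0.14.

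Genes of the unfolded protein response itself showed no common direction, with 10 of 17 lower, 7 higher and a median of -0.02 that median scaling turned to 0.04. Atf6, the sensor and transcription factor, was higher at 0.39, whereas Mbtps2, the protease that makes the last cut in its activation, was lower at -0.57. At least 1.2-fold higher were 3 of the 17, against 7.33% of all measured genes, namely Atf6, Atf3 at 0.31 and Trib3 at 0.28. Mbtps2, Atf3 and Trib3 were dim, at -3.62, -3.12 and -2.76 in Il18-/- and -3.05, -3.43 and -3.03 in Il18+/+. Xbp1 and Atf4 both differed by -0.02, and these arrays do not read the splicing of Xbp1. Targets of the integrated stress response, the arm downstream of PERK and ATF4, had a median of 0.04, and 9 of 14 read higher. None of the 14 reached 1.2-fold, and Cth, an enzyme of cysteine synthesis, at -0.23 and Cebpb, a transcription factor gene, at 0.23 were the farthest from 0.

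Further known targets of ATF6 or XBP1 were lower in all 13 measured cases, against 47.4% of all measured genes, with a median of -0.10, and 2 passed the 1.2-fold limit, against 12.4%. With median scaling 10 of the 13 were lower, with a median of -0.04, and 1 passed the limit. These 13 overlap other lists described here, those of cochaperones and degradation genes among them. Derl3, a channel component of ER-associated degradation, stood at -0.46, Dnajb9 at -0.27, Dnajc3, which encodes a cochaperone of BiP, at -0.22 and Hyou1, a large Hsp70-related exchange factor, at -0.09. Derl3, Dnajb9 and Hyou1 were dim, at -1.78, -1.10 and -3.20 in Il18-/- and -1.32, -0.83 and -3.11 in Il18+/+. The 13 genes spread from -0.46 to -0.01, so most lay within the software error of 0.20. The degradation genes as a list had 10 of 21 lower and a median of 0.00, with Derl3 lowest and Erlec1, a lectin that delivers glycoproteins to degradation, highest at 0.27.

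Genes that bring proteins into and out of the ER had medians above 0 that turned below 0 under spike-in scaling, at -0.23 for translocation and -0.22 for retrieval. For translocation and signal peptide genes the median was 0.07 and 11 of 17 read higher. For comparison, 8274 of all 15737 measured genes and 5300 of the 8663 in the level range of the members read higher. Srp68, of the signal recognition particle, stood at 0.23 and Sec61g, of the translocon, at 0.22. For retrieval and transport genes the median was also 0.07 and 8 of 10 read higher. With the normexp background correction, and likewise without background correction, that median was 0.00 and 5 of 10 read higher. Kdelr2, a receptor for the KDEL retention signal of ER chaperones, stood at -0.19 and Kdelr3, another such receptor, at 0.13. Both were dim, at -1.89 and -4.61 in Il18-/- and -1.70 and -4.74 in Il18+/+. ER calcium genes had a median of -0.03, with 7 of 13 lower, and median scaling turned it to 0.02. Rcn2 and Calu, which encode calcium-binding proteins of the secretory pathway, differed by -0.41 and -0.28.

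**Figure D3:**
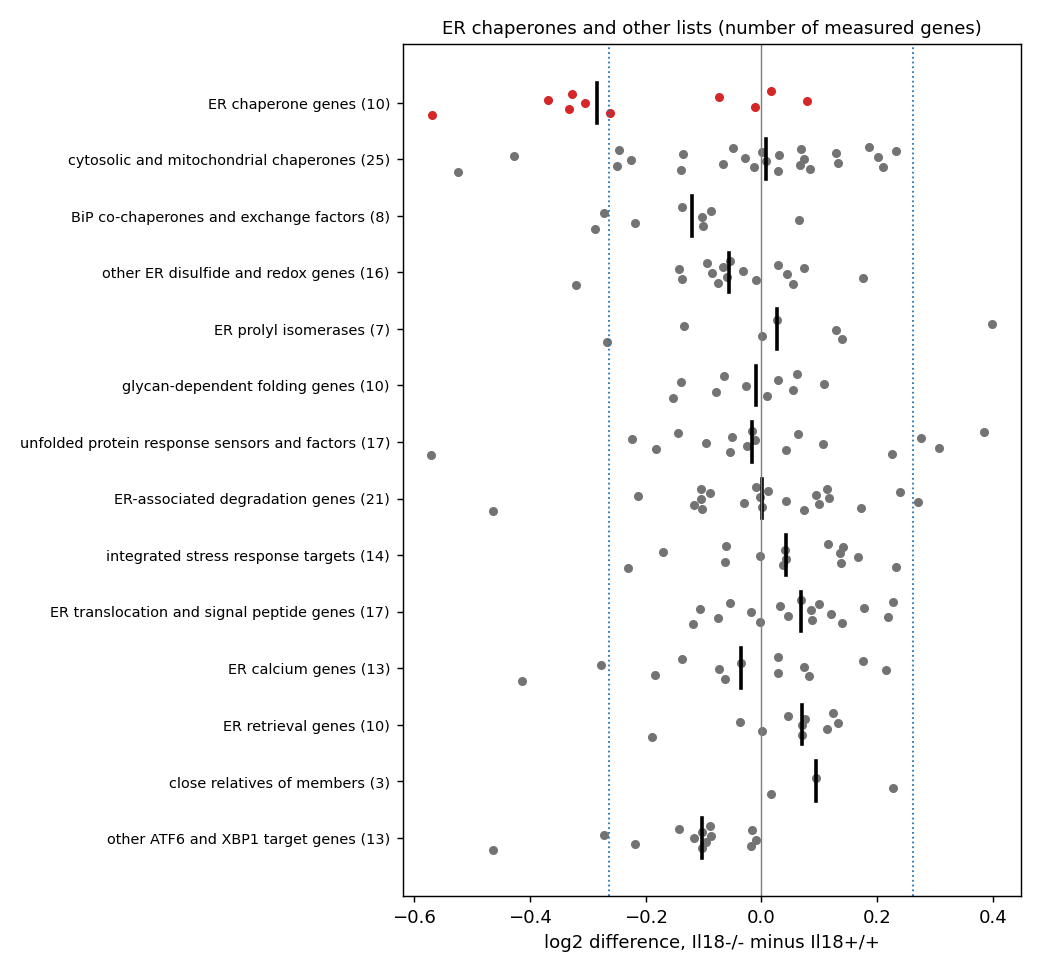
Log2 difference, Il18-/- minus Il18+/+, of every measured gene (points) of the 10 ER chaperone genes (red) and of 13 other lists (grey), with the median of each list (black bar), 1.2-fold limits (dotted) and the number of measured genes in brackets. The ER chaperone median of -0.28 lies farthest to the left, followed by cochaperones of BiP at -0.12 and other ATF6 and XBP1 targets at -0.10, and the vertical scatter of points has no meaning.

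Markers of several cell types moved between the same pools. All 25 choroid plexus genes were measured and all 25 were lower in Il18-/-, 24 of them by 1.5-fold or more, led by Cldn2 at -1.65 and F5 at -1.55. Their median was -1.08, and their summed signal, in multiples of the 75th percentile, was 201 in Il18-/- and 398 in Il18+/+. Ttr made up most of it, and without Ttr the sum of the other 24 genes was 68.1 in Il18-/- and 141 in Il18+/+, of which Enpp2 gave 47.6 in Il18-/- and 96.6 in Il18+/+. Meningeal and mural genes were lower in 11 of 13 cases with a median of -0.33, Igf2 lowest at -1.55, and sums of 24.5 in Il18-/- and 31.4 in Il18+/+. Myelin genes were lower in 9 of 10 cases with a median of -0.22 and sums of 204 in Il18-/- and 264 in Il18+/+.

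Liver and habenula markers moved the opposite way. Of 18 liver genes 16 were measured, 12 of them higher in Il18-/- by 1.5-fold or more, led by Alb at 3.64 and Mup20 at 3.62. Both were dim in Il18+/+, at -4.95 and -3.98. The liver median of 1.99 ranged from 1.14 to 2.11 under the alternatives. A stricter filter on dim probes left 9 liver genes, 6 of them higher, with a median of 1.35. Apoa1 and Cps1 were not well above background on both arrays. Without Ttr, which the choroid plexus also makes, the summed signal of the 15 other liver genes was 48.5 in Il18-/- and 51.5 in Il18+/+. Most of that sum came from Trf, which read 5.21 in Il18-/- and 5.60 in Il18+/+, a difference of -0.39. The sum thus says little about the 12 higher genes. Medial habenula genes were higher by 1.5-fold or more in 7 of 9 measured cases, with sums of 13.4 in Il18-/- and 7.44 in Il18+/+. Their median of 1.28 ranged from 0.91 to 1.34 under the alternatives. Neuronal genes had a median of 0.07, astrocyte genes 0.05, and microglial and endothelial genes -0.04 each. Dentate gyrus and pyramidal cell genes had medians of 0.21 and 0.06. Neocortical genes were lower in 7 of 9 cases, 3 of them by 1.2-fold or more, with a median of -0.16. The part of these cell types in the ER chaperone values was not tested.

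**Figure D4:**
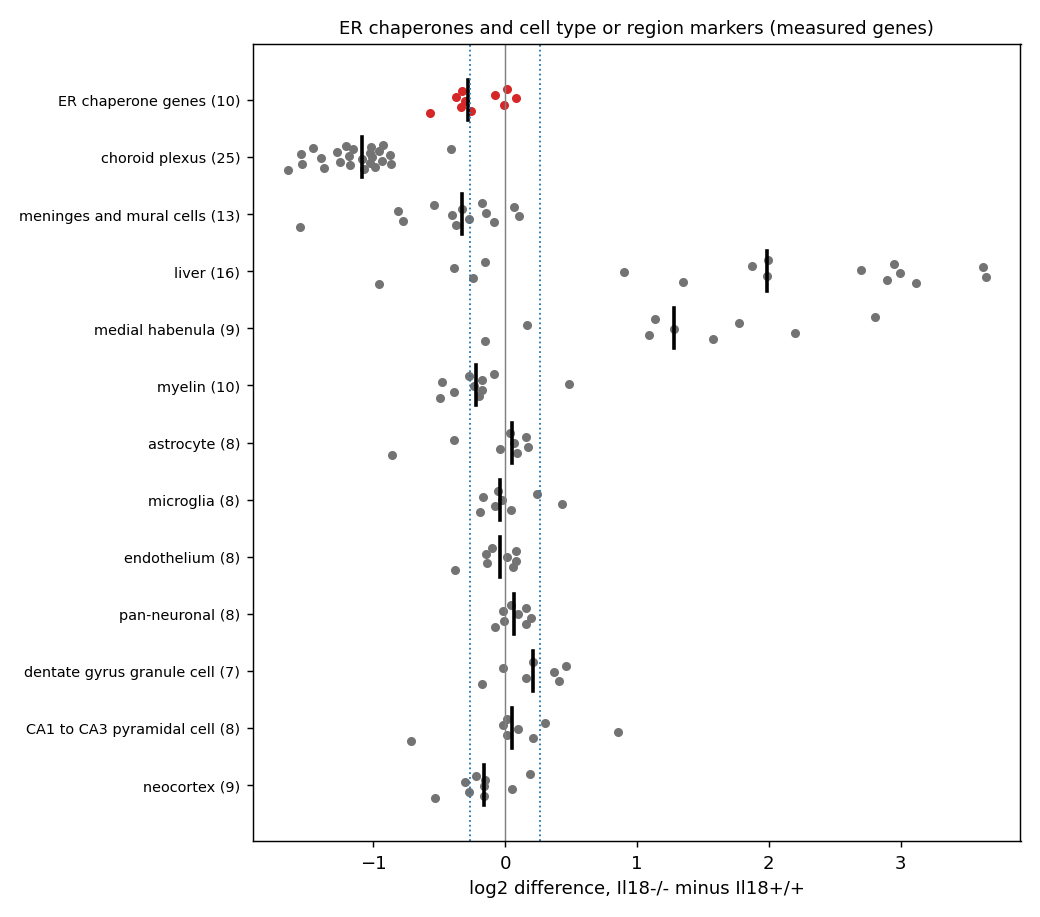
Log2 difference, Il18-/- minus Il18+/+, of every measured gene (points) of the ER chaperone genes (red) and of 12 lists of cell type or region markers (grey), with medians (black bars) and 1.2-fold limits (dotted). Choroid plexus markers, with a median of -1.08, lie to the left of every ER chaperone gene except that Cab39l, at -0.41, lies to the right of Sdf2l1, and liver and habenula markers spread to the right.

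Sdf2l1 was the lowest of the 10 in all 12 alternatives, between -0.86 and -0.49, and Hspa5 lay between -0.63 and -0.28. Pdia3, Manf, Pdia4 and Creld2 were likewise lower under every alternative, and so was Pdia6, between -0.37 and -0.02. With median scaling 7 of the 10 were lower, against 36.1% of all measured genes. With spike-in scaling, which lowered every gene by 0.29, all 10 were lower, against 93.9% of all measured genes.

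**Figure D5:**
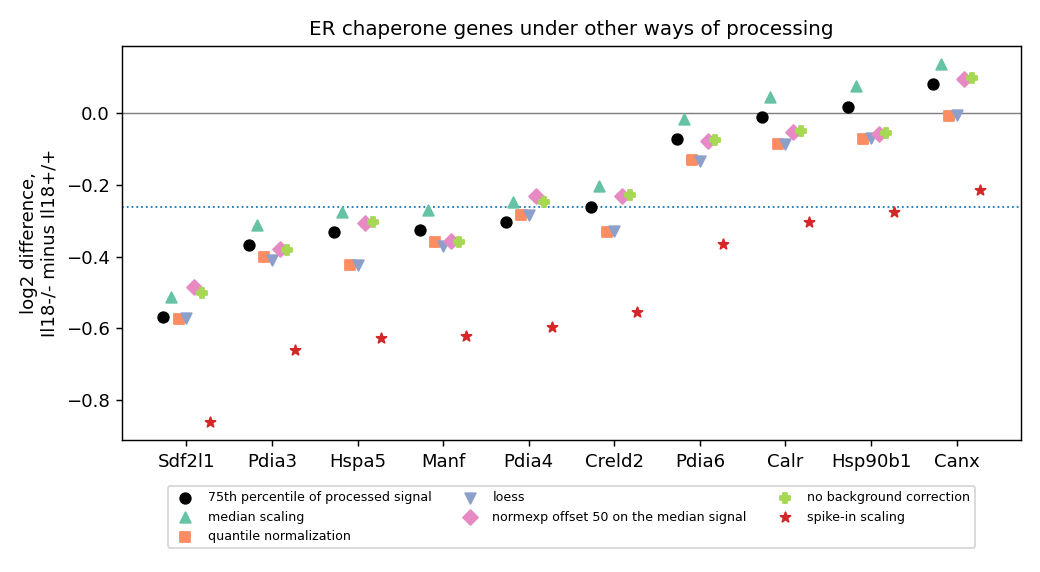
Log2 difference, Il18-/- minus Il18+/+, of each member (columns, lowest at the left) under 7 ways of processing (symbols), with 1.2-fold lower dotted. Sdf2l1, Pdia3, Hspa5, Manf, Pdia4 and Creld2 stay at -0.20 or lower in each, and the spike-in scaling (red stars) lies 0.29 below the main values throughout.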

How the data were processed

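For each genotype a pool of RNA from 7 mice was hybridised to 1 array. The deposited intensity values are processed signals of Agilent Feature Extraction (version 10.10.1.1 in the submitters' processing notes). Per the file headers, they had background and spatial trend removed, with no scaling across arrays. The array design refers to mm9. The authors' value table holds this intensity multiplied by 1.92 (Il18-/-) or 2.05 (Il18+/+), with column medians of 139.5 and 151.5, linear and not centred. What set the constants is unknown.

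Here 3671 control spots and the outlier-flagged spots (177 in Il18-/-, 124 in Il18+/+) were left out, log2 intensity was set relative to the 75th percentile (709.9 and 694.8), spots of a probe were averaged, and so were the probes of a gene that were well above background on both arrays. No spot was saturated. Names came from unversioned accessions through RefSeq (GRCm38.p6). Of 55675 probes, 27234 had a single symbol, 28441 had no name, and no probe had several. Calculations were tested on simulated data. No test was possible with 1 pool per genotype. Members, lists and limits (1.2-fold and 1.5-fold) were chosen with earlier results of these data known. The text names all members, and from each pathway list the genes farthest from 0. Marker lists are given as counts with a few leading genes, and further genes named for their role were chosen after their values were seen. Alternatives were other scalings, background corrections, filters, probe summaries and the authors' table. Array scaling used limma 3.58.1 in R 4.3.3, and summaries and plots used pandas 2.3.3, numpy 2.4.6, scipy 1.17.1 and matplotlib 3.10.9 in Python 3.11.15.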

Additional observations from a re-analysis of the deposited data

Results flagged for a closer look

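The 8 spike-in control probes, RNA added to each sample in a set amount, are outside the comparisons. After scaling, their median difference was 0.29, higher in Il18-/-. The file headers list a spike-in fit with a slope of 0 for Il18-/- and of 1.04 for Il18+/+.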

How the results depend on the processing

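Under 11 of the 12 alternatives the median of the 10 members stayed between -0.31 and -0.23, and from 4 to 6 members passed the 1.2-fold limit downwards, against 6.44% to 16.6% of all measured genes, and none the 1.5-fold limit. Scaling to the 8 spike-in control probes lowered every gene by 0.29. The members' median was then -0.58, 9 members passed 1.2-fold and 5 passed 1.5-fold downwards, but 54.3% of all measured genes were then at least 1.2-fold lower, and the members' median stayed 0.29 below that of all genes. Of 120 values of single members under the alternatives, 110 moved by less than 0.12, the median SD between probes of a gene, and the other 10 are those of the spike-in scaling. The other probe summaries, filters, the kept outlier spots and the authors' table leave most member values as they are by construction, since 9 members have 1 probe and the table is a constant multiple. The normexp correction was run on median spot signals, since mean signals were not used here. All 11 probes were well above background, yet Pdia4, the dimmest member, lost the 1.2-fold limit with normexp (-0.23), without background correction (-0.25) and with median scaling (-0.25). The number of pools limits all members. No paired analysis was possible because each genotype has 1 pool.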

Other observations

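Beyond the members, 12 measured genes had an exact ERSE match in the same 250 bases, of which 9 were lower in Il18-/- and 3 higher, with a median of -0.15. Of the 12502 measured genes with a promoter entry 46.9% were lower, with a median of 0.01. Of the 12, 4 (Derl3, Dnajc3, Ero1b and Syvn1) are also among the ATF6 and XBP1 targets described above. At least 1.2-fold lower were 3 of the 12, against 12% of genes with an entry, named here after their values were seen, namely Derl3 at -0.46, Acacb, which encodes an acetyl-CoA carboxylase, at -0.35 and Alg12, a mannosyltransferase gene of N-glycan assembly, at -0.30. Calr4, a calreticulin relative read at the dim levels of -3.20 in Il18-/- and -3.71 in Il18+/+, was the 1 gene at least 1.2-fold higher, at 0.51. Derl3 was dim, as given above, and Alg12 was also dim, at -3.08 in Il18-/- and -2.78 in Il18+/+. It lies head to head with Creld2, on the opposite strand, and 173 bases of their promoter entries overlap. The ERSE match of Creld2 lies within these shared bases, so the same stretch is counted for both genes. Creld2 stood at -0.26. The 6 measured genes with an exact ERSE-II match had a median of 0.11, with 4 of 6 higher. Of the 6 members with an ERSE match, Hspa5 and Creld2 stood at -0.33 and -0.26. Pdia6, Calr, Hsp90b1 and Canx, which also have a match, lay between -0.07 and 0.08. Sdf2l1, Pdia3 and Pdia4, which have none, lay between -0.57 and -0.30. A link between the motif and the differences was not tested.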
